A study of Mus musculus with 33 samples.

Results

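The 35 genes described here mark endothelium, the cell layer that lines blood and lymphatic vessels, and were followed in developing mouse kidneys with different doses of Six2. They were taken by symbol from a table of raw read counts that lists 35349 gene symbols, and all 35 were found. Sorted by role, 28 were pan-endothelial (11 junction and surface proteins, 7 receptors, 4 ligands and secreted proteins, and 6 transcription factors and enzymes), 3 arterial (Gja4, Gja5 and Sox17), 3 lymphatic (Flt4, Lyve1 and Prox1) and 1 glomerular (Ehd3). RNA came from whole kidneys of embryos with 2 intact copies of Six2 (wild type), with 1 copy lost (heterozygous) or with both lost (knockout). The groups were 6 wild-type, 5 heterozygous and 5 knockout embryos at embryonic day 11.5 (E11.5), and 4 wild-type and 4 heterozygous specimens at E15.5. There was no knockout group at E15.5, and the heterozygous kidneys of that stage carry the letters GCE in the titles of their batch 1 runs, which the labels do not explain. The labels name neither the Six2 allele nor the strain. Both sexes occur in each group.

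Vessels of the embryonic kidney form from progenitors within it and by sprouting from vessels around it. Vascular endothelial growth factor, read by the receptors Kdr and Flt1, drives sprouting, while the angiopoietins and their receptor Tek control how stable a vessel is. Notch and the SOX17 and SOX18 group of transcription factors take part in arterial identity, and PROX1 specifies lymphatic endothelium. Six2 is a transcription factor of nephron progenitors, whose loss makes those progenitors differentiate too early. Whole-kidney RNA was measured, so fewer endothelial cells and less RNA per endothelial cell cannot be told apart in any result below.

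The 33 libraries held 10819256 to 42073021 counts each and were read as 24 specimens. Libraries were joined as runs of 1 specimen where they shared genotype, sex and technical replicate number (E15.5) or the same embryo code in the title (heterozygous replicate 1 at E11.5), a reading that the labels do not spell out and on which every n rests. As a check of the labels, Six2 had a mean of 25.02 CPM (counts scaled to a common library total; SD 5.63, n = 6) in wild-type embryos. Heterozygotes had 13.1 (SD 2.88, n = 5) and knockouts 0.473 (SD 0.134, n = 5). At E15.5 it was 11.7 ± 0.834 and 6.15 ± 0.342 CPM (n = 4 each). By the labels, E11.5 libraries belonged to batch 1 (replicates 1 to 3 of the wild type and knockout, 2 and 3 of the heterozygotes) or batch 2. Heterozygous replicate 1 was in both. The labels do not say which step of the work the batches refer to. Ribosomal RNA genes took over 5% of the counts in wild-type replicates 1 to 3 (18.8% to 24.8%), heterozygous replicate 3 (16.2%), knockout replicate 2 (11.6%) and the batch 1 run of heterozygous replicate 1 (17.2%).

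All 35 genes were detected above the filter on low counts. Levels can be compared between genes only per unit of length, as CPM per kilobase of gene length (RPKM). In wild-type embryos at E11.5 the highest level per length was that of Plvap, which forms the diaphragms of fenestrated capillaries, at 34.5 ± 10.1 RPKM (SD, n = 6). The tight junction gene Cldn5 (26.3 ± 8.81) and the apelin receptor gene Aplnr (24.3 ± 5.45) came next. The SDs of these 3 overlap. They come from the same 6 embryos, so this overlap does not settle their order, which was not compared within embryos. Lyve1, the hyaluronan receptor of lymphatic vessels, was lowest at 0.220 ± 0.163 RPKM, below Prox1 (1.098 ± 0.421) and Apln (1.67 ± 0.281). At E15.5 Cldn5 led with 56.0 ± 2.86 RPKM (n = 4), Aplnr followed with 38.9 ± 1.13 and Plvap with 36.2 ± 1.696, while Prox1 (0.320 ± 0.0226) and Vwf (0.655 ± 0.0299) were the lowest.

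Cdh5 (ENSMUSG00000031871; chromosome 8, 104101625 to 104144511, plus strand, mm10) encodes VE-cadherin, the adhesion molecule of endothelial junctions. Its level in wild-type embryos ran from 36.1 to 132 CPM with a median of 87.5 (n = 6). The heterozygous embryos gave 110, 129, 100, 67.6 and 64.0 CPM and the knockouts 99.6, 110, 94.0, 73.4 and 63.1. The 3 genotypes overlapped over nearly the whole range, and within each mutant genotype the batch 2 embryos (replicates 4 and 5) were the lowest. Knockout against wild type was -0.03 ± 0.19 on the log2 scale (SE; 95% interval -0.45 to 0.38, adjusted p = 0.951). The heterozygous difference was 0.00 ± 0.19 (adjusted p = 0.999).

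Pecam1 and Kdr overlapped between genotypes as well. Pecam1, the adhesion molecule CD31, had values of 49.3 to 115 CPM with a median of 93.3 in wild-type embryos, 111, 91.9, 67.8, 104 and 83.6 in heterozygotes, and 77.4, 88.2, 72.4, 89.8 and 76.3 in knockouts. All knockout values lay inside the wild-type range, and the difference was -0.04 ± 0.18 (adjusted p = 0.941). Kdr, the main signalling receptor for vascular endothelial growth factor, ran from 74.3 to 163 CPM with a median of 152 in wild type. It measured 180, 182, 139, 161 and 120 in heterozygotes and 150, 159, 153, 145 and 126 in knockouts. Knockout against wild type was 0.13 ± 0.16 (adjusted p = 0.705).

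**Figure D1:**
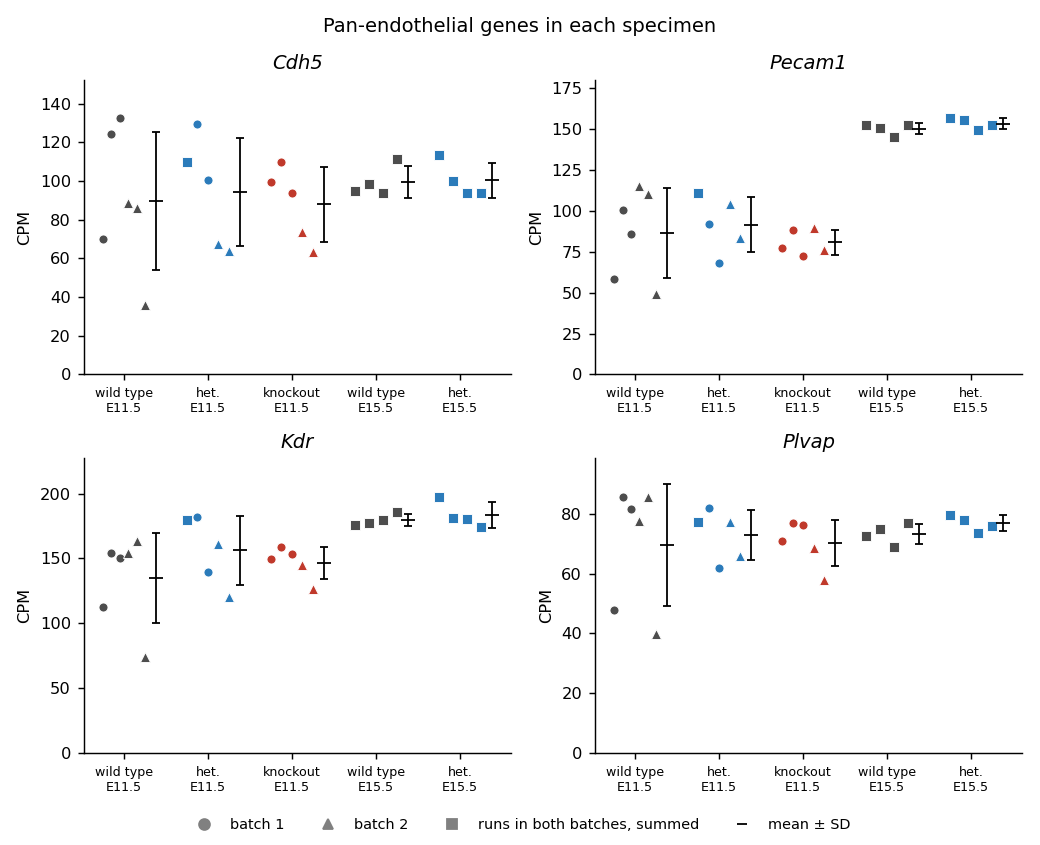
CPM (linear axis from 0) of Cdh5, Pecam1, Kdr and Plvap in each specimen, by genotype and stage; point shapes give the batch, and bars show mean ± SD. At E11.5 the genotypes overlap, with Cdh5 from 36.1 to 132 CPM in wild type, and the E15.5 specimens lie close together.

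Across the whole set, 1 of 35 genes passed between knockout and wild-type embryos at E11.5 (edgeR, adjusted p under 0.05), and it was lower. Among all 16141 genes tested 7.09% passed in either direction and 4.03% were lower. The median log2 fold change was 0.01 over the 35 genes and 0.00 over all genes. Above 0 were 20 of the 35 genes and 7986 of all 16141. No member had groups that did not overlap, as 3.23% of all genes did. The 95% intervals lay within a 2-fold change in either direction for 31 of 35 genes and within 1.5-fold for 27, and the intervals that reached past 2-fold belonged to Gja5, Gja4, Vwf and Lyve1. Prox1 (0.37 ± 0.14, adjusted p = 0.139) and Ehd3 (0.18 ± 0.09, adjusted p = 0.247) were under 0.05 only before adjustment and did not pass. The 12 genes of neurons, sympathetic chain and glia, where Prox1 is also expressed, summed to 98.0 to 305 CPM in wild-type and 253 to 350 CPM in knockout embryos, and their part in Prox1 was not tested.

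The gene that passed was Ramp2 (ENSMUSG00000001240; chromosome 11, 101246028 to 101259546, plus strand), which encodes an accessory protein that turns the calcitonin receptor-like receptor into a receptor for adrenomedullin. Ramp2 ran from 34.2 to 54.3 CPM with a median of 43.0 in wild-type embryos, and was 33.4, 35.3, 30.9, 34.2 and 33.7 CPM in knockouts. Heterozygotes had 45.9, 41.0, 32.6, 44.7 and 45.5 CPM. The 5 knockouts lay close together at or below the bottom of the wild-type range, which they overlapped through the lowest wild-type embryo, replicate 3. Ramp2 fell by 0.35 ± 0.10 on the log2 scale, to 78.3% of wild type (95% interval 66.9 to 91.6, adjusted p = 0.0485). The call held in 7 of 21 alternative fits, 3 of them among the 11 that left out 1 embryo, where adjusted p reached 0.247 without knockout replicate 5. Within batch 1 the difference was -0.14 ± 0.11 (adjusted p = 0.601) and within batch 2 it was -0.50 ± 0.14 (adjusted p = 0.178). With no batch term it was -0.38 (adjusted p = 0.137), and with the prefix of the titles as a block in place of batch it was -0.16 (adjusted p = 0.546).

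Calcrl, the receptor that Ramp2 accompanies and no member of the 35, was measured among 15 angiogenic ligands and partners. It was 177, 210 and 167 CPM in batch 1 wild-type embryos against 105, 117 and 106 in batch 1 knockouts, and 95.6, 101 and 80.0 against 48.1 and 45.5 in batch 2. Within both batches the groups did not overlap. Calcrl fell by 0.85 ± 0.09 in knockouts (adjusted p = 8.69e-06), by 0.66 ± 0.08 within batch 1 (adjusted p = 0.00263) and by 0.98 ± 0.12 within batch 2 (adjusted p = 0.00814). Heterozygotes were at -0.32 ± 0.08 against wild type (adjusted p = 0.361) and knockouts fell by 0.53 ± 0.09 against heterozygotes (adjusted p = 0.00438). Adm, the adrenomedullin gene, was at 0.13 ± 0.28 in knockouts (adjusted p = 0.860).

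On the rest of that list Angpt1, the ligand that activates Tek, rose by 0.56 ± 0.11 and the lymphatic growth factor gene Vegfc rose by 0.41 ± 0.10, while the chemokine receptor gene Cxcr4 fell by 0.71 ± 0.15. The other 11 genes did not pass, among them Vegfa, the main growth factor for these vessels (-0.24 ± 0.11, adjusted p = 0.216). These 3 calls were lost within batch 2 alone (adjusted p of 0.379, 0.0710 and 0.434) and without the libraries rich in ribosomal RNA (0.170, 0.136 and 0.145), and Vegfc also within batch 1 alone (0.290). None of 12 Notch and arterial-venous genes passed. Of 13 endothelial transcription factors tested outside the set 1 passed, the forkhead gene Foxc2, which fell by 0.27 ± 0.07 and was not called within either batch (adjusted p of 0.0663 and 0.620). Which cells of the kidney carried the changes of these listed genes was not tested. Mural cells, the pericytes and smooth muscle around vessels, were represented by 11 genes tested, of which Rgs5 (0.55 ± 0.12) and Angpt1 rose and the filament gene Des (-0.83 ± 0.10) fell. Macrophage genes were higher in knockouts, 10 of 13, led by C1qc (1.04 ± 0.20), Fcer1g (1.01 ± 0.23) and Mrc1 (1.01 ± 0.18). Among all 16141 genes tested 494 were higher. Fits within single batches or without the libraries rich in ribosomal RNA are not given here for macrophage genes, Rgs5 or Des. In batch 1, ribosomal shares were 18.8% to 24.8% in wild-type and 0.868% to 11.6% in knockout libraries. The 14 macrophage markers in the table summed to 122 to 278 CPM in knockout embryos. The sums were 85.3 to 169 CPM in wild-type embryos and 116 to 215 CPM in heterozygotes. The part of macrophages in the endothelial values was not tested.

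Loss of 1 copy of Six2 moved no member past the test at either stage. At E11.5, 0 of 35 passed by edgeR and 0 by DESeq2, 0 had an unadjusted p under 0.05, and 0.0681% of all genes passed. The median was 0.04, against 0.01 over all genes. Knockouts against heterozygotes gave 0 of 35 by both tools, with 1 unadjusted p under 0.05 (Ramp2, -0.27 ± 0.11, adjusted p = 0.198), where 3.69% of all genes passed. At E15.5 the specimens varied far less, and all 35 intervals lay within 1.5-fold of no change. There 0 of 35 passed by both tools (0.570% of 18244 genes tested passed), and by edgeR Vwf (0.15 ± 0.05, adjusted p = 0.301) and Clec14a (0.10 ± 0.04, adjusted p = 0.576) were under 0.05 only before adjustment. The heterozygous and wild-type groups did not overlap for Vwf and for the surface sialomucin gene Cd34 (0.04 ± 0.02, adjusted p = 0.736), 2 of 35, both higher in heterozygotes, where 2.92% of all genes were higher with no overlap. The median over the 35 genes was 0.04 and 29 were above 0. Over all 18244 genes the median was 0.00 and 9204 were above 0. Heterozygous replicate 1 held the highest heterozygous value for 22 of the 35 genes, so the 29 signs are not separate observations. The difference between the heterozygous effects at the 2 stages passed for 0 of 35 genes by edgeR and by DESeq2, with 0 unadjusted p values under 0.05, and for 0.00576% of all genes.

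**Figure D2:**
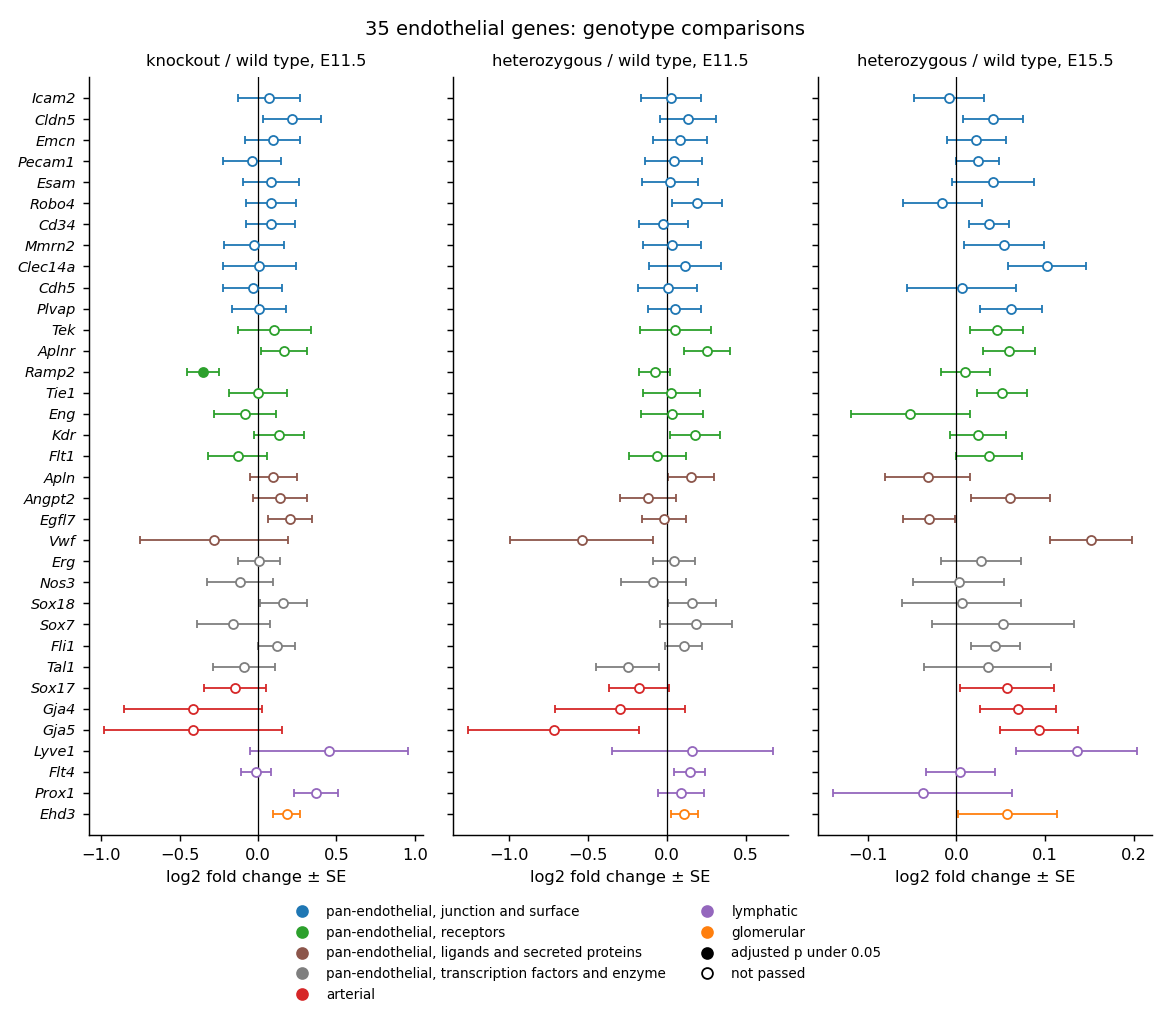
Log2 fold change ± SE of the 35 genes in 3 genotype comparisons, sorted by role; filled points have an adjusted p under 0.05, and the 3 panels have different horizontal scales. Ramp2 (-0.35 ± 0.10) is the only filled point, and the bars are narrower at E15.5.

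The E11.5 embryos differed from each other more than the genotypes did, and most of the endothelial genes moved together, as did some genes outside the set. The median coefficient of variation of the 35 genes was 31.0% among wild-type embryos, against 19.3% over all genes. Among heterozygotes it was 17.2% (17.3% over all genes) and among knockouts 13.8% (15.9%). At E15.5 it was 4.56% in wild type and 5.35% in heterozygotes, against 4.58% and 5.098% over all genes. Wild-type replicate 6 held the lowest wild-type value for 29 of 35 genes, with a median of 49.8% of the middle value of the other 5. Wild-type replicate 1 was at 73.6%, heterozygous replicate 3, lowest for 22 genes, at 74.8%, and knockout replicate 5, also lowest for 22, at 83.4%.

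These embryos also differed elsewhere. In wild-type replicate 6 the 10 loop of Henle and distal tubule genes summed to 65.4 CPM (17.4 to 23.4 in the other wild-type embryos). Its 12 mural cell genes summed to 894 CPM, close to the lowest of the others (904 to 1239), and do not set it apart. Its ribosomal share was 0.202% and its total 19940476 counts, inside the range of its batch. Wild-type replicate 1 had a ribosomal share of 21.3% and an erythroid sum of 9645 CPM, the highest of any embryo, and heterozygous replicate 3 had 16.2% and 5236 CPM. The part of these differences in the endothelial values was not tested.

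With genotype, sex and batch removed by least squares, log2 CPM of the other 34 genes was correlated with that of Cdh5 over the 16 E11.5 embryos. The embryos share batches and depth, so these coefficients are a description. The median Pearson r was 0.88, against -0.03 over all 16140 genes. Of the 34 genes 21 ranked among the top 1% of genes (162 genes), and 30 had an r over 0.5, as did 12.7% of all genes. Eng, a coreceptor for transforming growth factor beta ligands, followed Cdh5 most closely among members (r = 0.96, Spearman rho = 0.94), followed by Flt1 and Robo4 (both 0.95). The lowest values were those of Tal1 (0.03), Prox1 (0.06), Apln (0.17) and Ehd3 (0.44). Tal1 also acts in blood cells and Prox1 in neurons and other epithelia. Without the libraries above 5% ribosomal counts, which left 11 embryos, 20 genes ranked in the top 1% and r became 0.79 for Tal1, 0.72 for Apln and -0.39 for Prox1. Leaving out the 2 embryos farthest from the median of Cdh5 changed r for Eng to 0.92, for Robo4 to 0.91 and for Ramp2 from 0.56 to 0.42. Outside the set the genes most like Cdh5 were the basement membrane gene Nid1 (r = 0.99), Myct1 (0.97), Cd93 (0.97), Plxnd1 (0.97) and Ptprb (0.97). Itgb1 (0.96) and Sparc (0.94) were also in the top 1%. So were the mural cell genes Abcc9 (0.90), Cspg4 (0.90), Pdgfrb (0.89) and Myh11 (0.88), while Notch3 (0.37), Rgs5 (-0.25) and Des (-0.30) of that list were far lower. By these mural cell genes, following Cdh5 was not particular to endothelial genes. Among the angiogenic ligands and partners called in knockouts, r was 0.72 (Angpt1), 0.52 (Calcrl), 0.47 (Vegfc) and -0.53 (Cxcr4). For Foxc2 it was -0.19. Of the Notch and arterial-venous genes named below, Dll4 (0.92) and Jag1 (0.73) followed Cdh5 more than Nr2f2 (0.24).

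Both connexin genes and Vwf were among the 4 most variable members in wild-type embryos, with coefficients of variation of 69.4% (Gja5), 58.8% (Vwf) and 58.7% (Gja4), below the 74.2% of Lyve1, whose counts were low. Gja5 (ENSMUSG00000057123; chromosome 3, 96904693 to 97077416, plus strand), the arterial gap junction protein connexin 40, ran from 6.00 to 57.5 CPM with a median of 36.0 among wild-type embryos. It was 26.8, 29.2, 3.64, 19.1 and 17.4 CPM in heterozygotes and 43.8, 34.5, 16.4, 19.1 and 11.7 in knockouts. The low values were those of wild-type replicates 1 and 6 and heterozygous replicate 3, and all genotypes overlapped. Gja4, connexin 37, ran from 3.80 to 23.1 CPM with a median of 16.7 in wild type, with 13.6, 13.02, 5.29, 12.3 and 11.7 in heterozygotes and 15.2, 15.7, 7.77, 9.14 and 5.87 in knockouts. Its low values came from the same 3 embryos and from knockout replicate 5. Knockout against wild type was -0.42 ± 0.57 for Gja5 (95% interval -1.67 to 0.83, adjusted p = 0.746) and -0.41 ± 0.44 for Gja4 (-1.38 to 0.55, adjusted p = 0.661). A 2-fold fall of either lay inside its interval.

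Sox17, a transcription factor of arterial endothelium, was steadier, from 8.35 to 16.3 CPM with a median of 13.6 in wild type, 13.2, 10.9, 8.72, 12.7 and 11.3 in heterozygotes and 11.9, 16.2, 9.49, 9.93 and 9.996 in knockouts. Knockouts were at -0.15 ± 0.20 (adjusted p = 0.746). Vwf, the gene of von Willebrand factor, which endothelial cells and megakaryocytes store for clotting, ran from 23.2 to 161 CPM in wild type with a median of 127. It was 101, 96.5, 26.2, 64.6 and 69.2 CPM in heterozygotes and 122, 111, 62.0, 88.7 and 42.7 in knockouts, with the same 3 embryos lowest in wild type and heterozygotes. Over the E11.5 embryos Vwf followed Cdh5 (r = 0.91), and the megakaryocyte genes Pf4 (0.35), Ppbp (0.26) and Itga2b (-0.10) did so less.

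**Figure D3:**
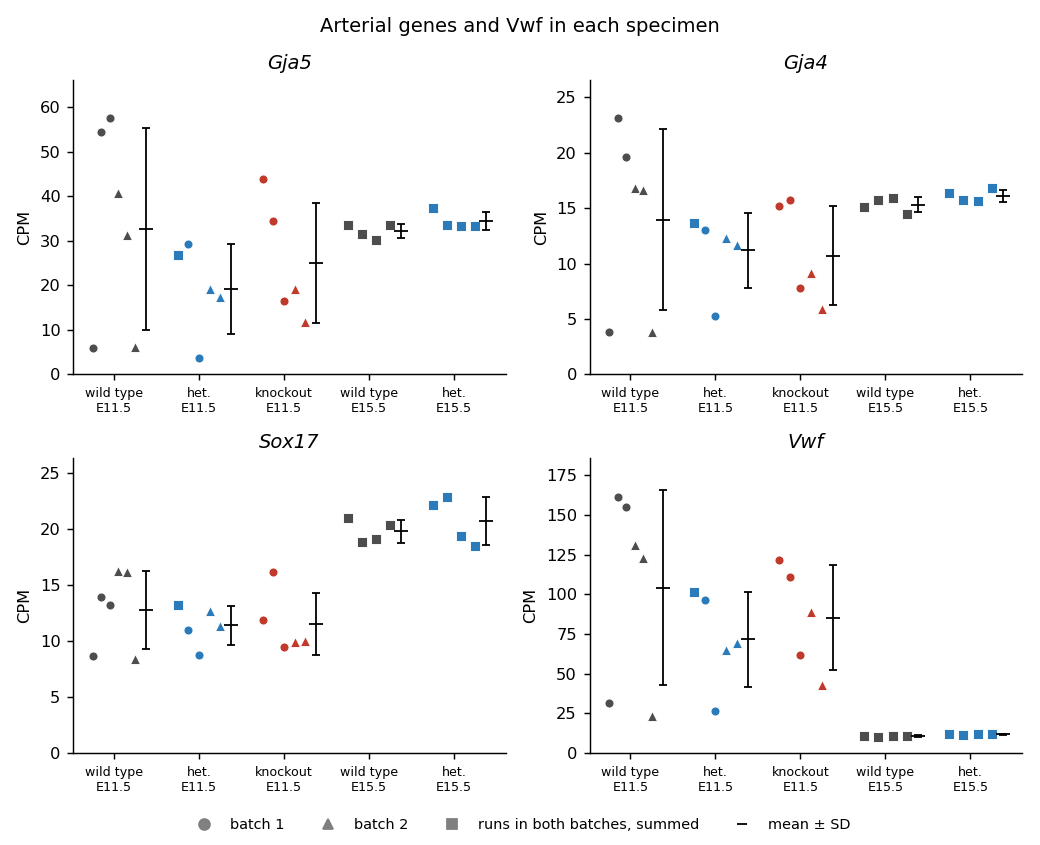
CPM (linear axis from 0) of Gja5, Gja4, Sox17 and Vwf in each specimen, by genotype and stage; point shapes give the batch, and bars show mean ± SD. Gja5 spans 6.00 to 57.5 CPM among E11.5 wild-type embryos, and Vwf stands at 9.88 to 11.9 CPM in every E15.5 specimen.

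Between the stages more of the set rose than fell, and many genes outside it changed too. In wild-type kidneys 18 of 35 genes were higher at E15.5 than at E11.5 and 4 were lower, where 26.4% of all 17362 genes tested were higher and 26.0% lower. The median was 0.39, against -0.02 over all genes. Of the 35 genes, 17 were higher and 2 were lower with no overlap between the groups, against 24.2% and 19.9% of all genes. This model held no batch term. With batch added (0.5 for specimens run in both), a replicate block chosen after the data were seen, 20 genes were higher and 4 lower, and Kdr and Eng passed as well. With the libraries of batch 1 alone 19 genes were higher and 5 lower, and with those of batch 2 alone 16 and 4. The labels do not say whether a batch number names the same batch at both stages. In batch 1, wild-type ribosomal shares were 18.8% to 24.8% at E11.5 and 0.529% to 0.722% at E15.5. In batch 2 they were 0.202% to 0.266% and 0.373% to 0.772%. None of these fits can therefore separate stage from differences in processing between the stages.

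Among junction and surface genes 7 of 11 were higher and none was lower. They were Icam2 (1.13 ± 0.18), Cldn5 (1.1 ± 0.19), Emcn (0.87 ± 0.16), Pecam1 (0.76 ± 0.18), Esam (0.55 ± 0.17), Robo4 (0.55 ± 0.16) and Cd34 (0.39 ± 0.15). Icam2, an adhesion molecule bound by leukocytes, ran from 7.69 to 20.0 CPM with a median of 13.3 at E11.5 and was 31.1, 31.2, 27.4 and 29.4 CPM at E15.5. Pecam1 was 153, 151, 145 and 152 CPM at E15.5, above every E11.5 embryo. Cdh5 and Plvap did not follow. Cdh5 was 94.6, 98.2, 93.6 and 111 CPM at E15.5, inside its E11.5 range (0.06 ± 0.25, adjusted p = 0.856). Libraries of a single batch number gave -0.17 ± 0.16 and 0.32 ± 0.21. Plvap was at 0.05 ± 0.16 (adjusted p = 0.822), and Mmrn2 and Clec14a did not pass.

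Of the 7 receptors 4 were higher, Tek (1.18 ± 0.21), Aplnr (0.64 ± 0.15), Ramp2 (0.55 ± 0.11) and Tie1 (0.51 ± 0.17). Tek, the angiopoietin receptor, ran from 24.02 to 65.5 CPM with a median of 58.0 at E11.5 and was 115, 119, 115 and 117 CPM at E15.5, with no overlap. Kdr was 176, 177, 180 and 186 CPM at E15.5, above all E11.5 wild-type embryos, and lay at the threshold (0.37 ± 0.15, adjusted p = 0.0505). It passed in 8 of 18 alternative fits. Flt1 and Eng did not pass. All 4 ligands and secreted proteins changed. Apln, the ligand of Aplnr, which tip cells of growing vessels make, rose from 4.09 to 6.41 CPM (median 5.21) at E11.5 to 20.4, 20.2, 20.0 and 17.8 CPM, a 3.78-fold rise (1.92 ± 0.13, adjusted p = 2.60e-11). Angpt2 (0.50 ± 0.18), which opposes Angpt1 at Tek, and Egfl7 (0.50 ± 0.16) were also higher. Some of these calls were less stable than others: over 18 alternative fits Angpt2 and Cd34 passed in 15, Egfl7 and Robo4 in 16, and Tie1 and Sox17 in 17. Angpt2 was lost with batch 1 alone (0.19, adjusted p = 0.304) and without wild-type E15.5 replicate 3 or E11.5 replicate 4, and Cd34 without wild-type E15.5 replicate 1 or 2 or E11.5 replicate 1 (adjusted p up to 0.0950). Egfl7, Robo4 and Sox17 were lost with batch 2 alone (adjusted p of 0.0976, 0.0505 and 0.0887), Egfl7 and Robo4 also without the libraries rich in ribosomal RNA (0.109 and 0.0539), and Tie1 without wild-type E15.5 replicate 2 (0.0579).

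Vwf (ENSMUSG00000001930; chromosome 6, 125546774 to 125686679, plus strand) went the other way. From the E11.5 levels given above it dropped to 10.7, 9.88, 10.6 and 11.02 CPM at E15.5, which is 9.79% of the E11.5 level (95% interval 4.75 to 20.2; -3.35 ± 0.50, adjusted p = 6.24e-06). The lowest E11.5 embryo, at 23.2 CPM, was above all 4 E15.5 specimens, and all 18 alternative fits kept the call. Genes of megakaryocytes and platelets fell as well, 10 of 10, among them Ppbp (-3.42 ± 0.25) and Treml1 (-2.57 ± 0.31). Their sum was 49.0 to 78.7 CPM in wild type at E11.5 and 20.9 to 23.6 CPM at E15.5, and their part in the fall of Vwf was not tested.

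Among transcription factors and the nitric oxide synthase gene Nos3, Erg was higher (0.75 ± 0.12) and Tal1 and Fli1 were lower. Tal1 ran from 11.1 to 26.4 CPM with a median of 16.3 at E11.5 and was 11.7, 10.3, 10.5 and 9.86 CPM at E15.5, overlapping the lowest E11.5 embryo (-0.75 ± 0.19, adjusted p = 0.00224). Erythroid genes, in whose lineage Tal1 also acts, were lower in 8 of 13 cases and higher in 2, and their summed level was 2263 to 9645 CPM at E11.5 and 933 to 1001 CPM at E15.5. Fli1 ran from 56.5 to 97.2 CPM (median 83.5) at E11.5 and was 59.0, 59.0, 57.0 and 56.7 CPM at E15.5 (-0.45 ± 0.12, adjusted p = 0.00282). Erg and Fli1 are ETS factors of endothelium and differed in direction. Sox7, Sox18 and Nos3 did not pass.

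**Figure D4:**
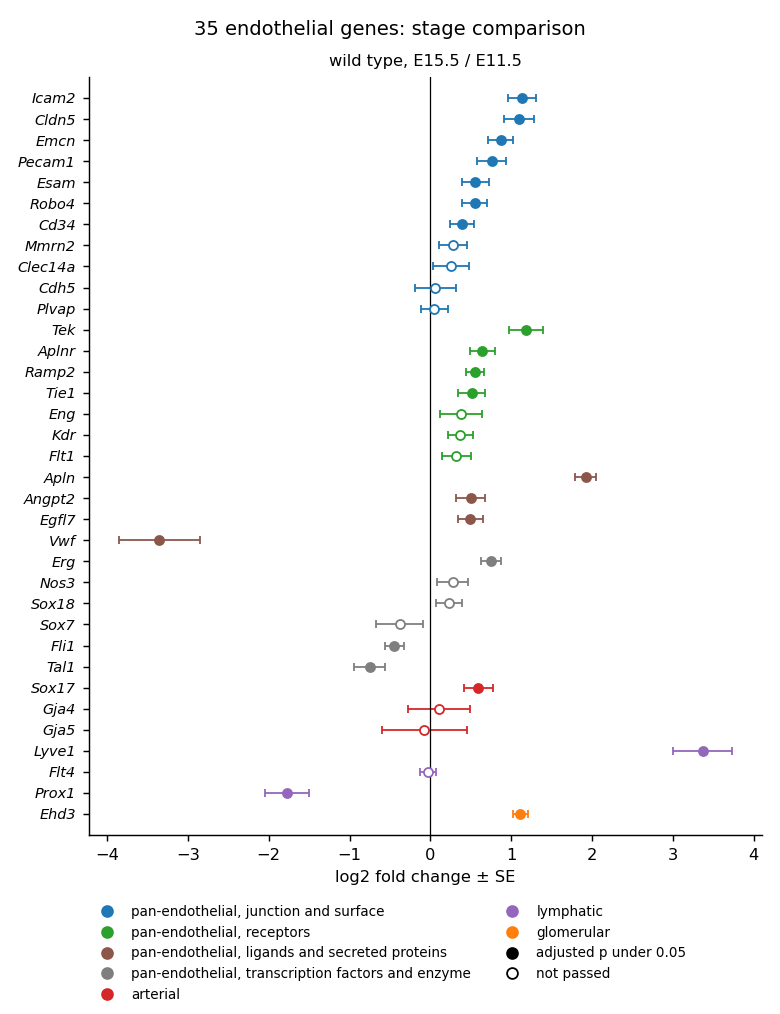
Log2 fold change ± SE of the 35 genes between E15.5 and E11.5 in wild-type kidneys, sorted by role; filled points have an adjusted p under 0.05. Lyve1 (3.37 ± 0.36) and Vwf (-3.35 ± 0.50) lie at the ends, and Cdh5 and Plvap lie at 0.06 and 0.05.

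In the arterial set only Sox17 passed, rising to 21.0, 18.8, 19.1 and 20.4 CPM (0.59 ± 0.18, adjusted p = 0.00731), above every E11.5 wild-type embryo. Gja5 was 33.5, 31.4, 30.3 and 33.5 CPM and Gja4 15.1, 15.8, 15.9 and 14.4 CPM at E15.5. Both lay inside their E11.5 ranges (-0.07 ± 0.52 and 0.11 ± 0.38). Of 12 genes of the Notch pathway and of arterial-venous identity 6 were higher, led by the Notch ligand genes Jag1 (1.98 ± 0.11) and Dll4 (0.91 ± 0.21), and 3 were lower, among them Nr2f2 (-0.65 ± 0.24), a venous regulator.

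The 3 lymphatic genes went 3 ways. Lyve1 (ENSMUSG00000030787; chromosome 7, 110850607 to 110863239, minus strand) ran from 0.0472 to 1.34 CPM at E11.5, or 1 to 26 counts per embryo, and was 6.81, 6.03, 5.98 and 6.14 CPM at E15.5. It rose 10.3-fold, to 1030.3% of the E11.5 level (95% interval 608 to 1746; adjusted p = 6.39e-08). Prox1 (ENSMUSG00000010175; chromosome 1, 190118035 to 190170714, minus strand) ran from 5.72 to 15.7 CPM with a median of 8.44 at E11.5 and was 2.87, 2.45, 2.62 and 2.81 CPM at E15.5, 29.3% of the earlier level (19.8 to 43.3; -1.77 ± 0.27, adjusted p = 8.34e-06). Neither overlapped, and both calls held in all 18 alternative fits. Flt4, the receptor for VEGF-C, ran from 28.8 to 45.2 CPM (median 41.6) at E11.5 and was 39.8, 41.8, 38.3 and 41.2 CPM at E15.5 (-0.03 ± 0.10, adjusted p = 0.845). Lyve1 also marks some macrophages, and 4 of 14 macrophage genes were higher and 1 lower at E15.5, with sums of 85.3 to 169 CPM and 137 to 147 CPM. Prox1 is also a neural gene, and 12 of 12 genes of neurons, sympathetic chain and glia were lower at E15.5, with sums of 98.0 to 305 CPM falling to 21.0 to 26.4. The part of either cell type was not tested.

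Ehd3 (ENSMUSG00000024065; chromosome 17, 73804134 to 73832094, plus strand), an endocytic recycling protein enriched in glomerular endothelium, ran from 12.2 to 17.3 CPM with a median of 15.8 at E11.5. It was 34.7, 33.7, 30.5 and 33.6 CPM at E15.5, 2.16-fold higher with no overlap (1.11 ± 0.10, adjusted p = 2.37e-09). Of 10 podocyte genes 6 were higher and 2 lower at E15.5, with sums of 971 to 1460 CPM and 1403 to 1487 CPM, and their part in Ehd3 was not tested.

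**Figure D5:**
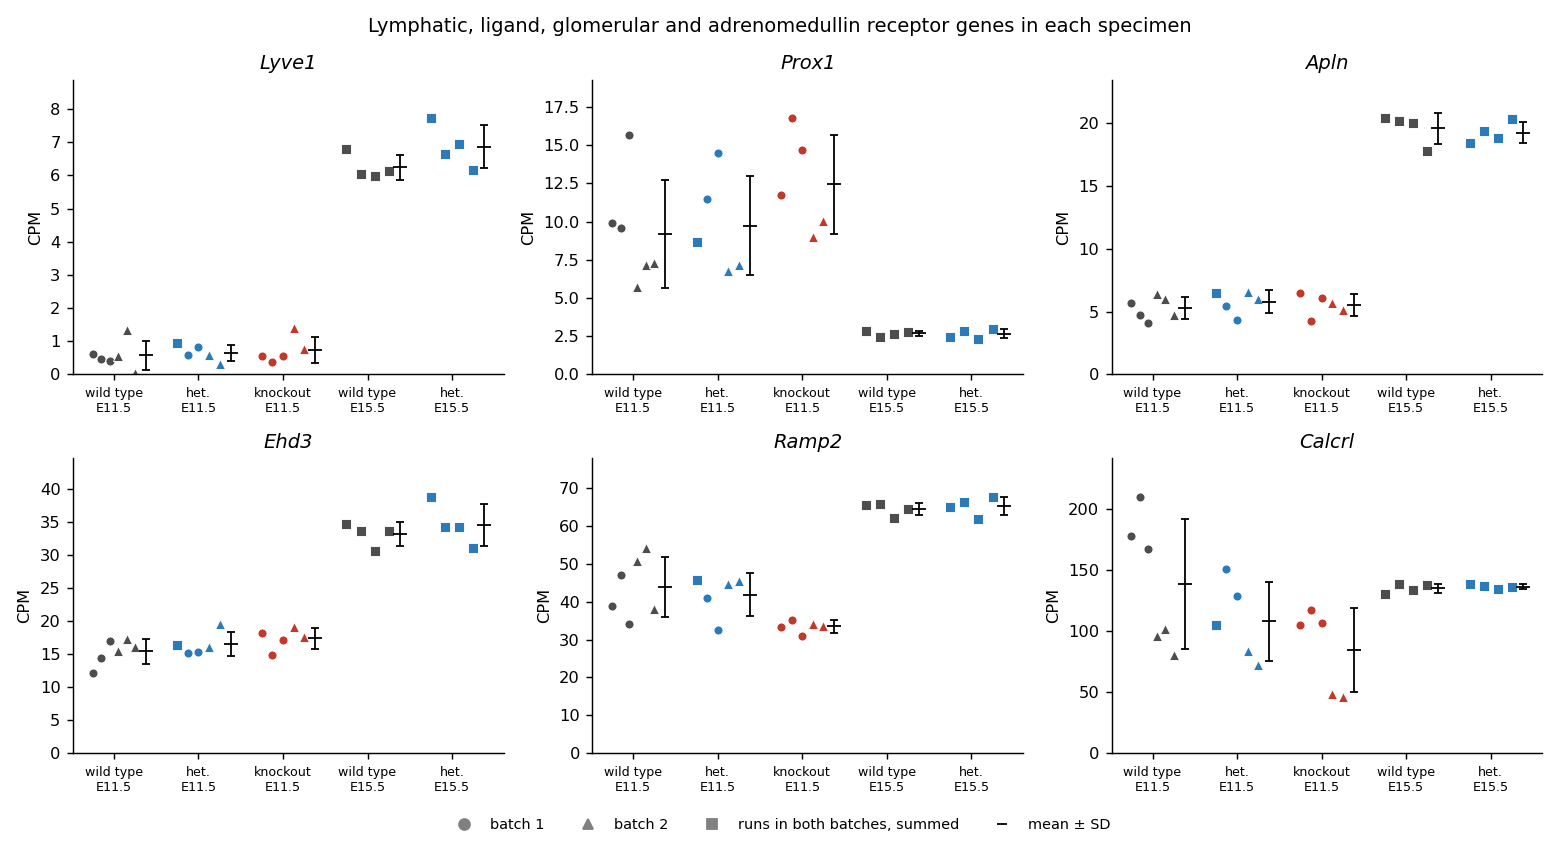
CPM (linear axis from 0) of Lyve1, Prox1, Apln, Ehd3, Ramp2 and Calcrl in each specimen, by genotype and stage; point shapes give the batch, and bars show mean ± SD. Lyve1, Apln and Ehd3 are higher and Prox1 lower in all E15.5 specimens, and Ramp2 is 30.9 to 35.3 CPM in the 5 knockouts.

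Other regulators of vessels shifted in both directions. Of 15 angiogenic ligands and partners 5 rose and 5 fell, with the lymphatic growth factor gene Figf (4.23 ± 0.26) and Pdgfb (0.87 ± 0.15) higher and Cxcl12 (-1.78 ± 0.13), Pgf (-1.71 ± 0.15) and Vegfc (-0.65 ± 0.14) lower. Of 13 endothelial transcription factors tested outside the set 7 rose, led by Klf4 (1.03 ± 0.14) and Mef2c (0.89 ± 0.15), and 3 fell, among them Foxc1 (-1.44 ± 0.08) and Gata2 (-1.38 ± 0.27). Of 12 mural cell genes 5 rose, among them Kcnj8 (3.80 ± 0.33) and Abcc9 (1.92 ± 0.15), and 3 fell, among them Des (-1.71 ± 0.14).

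Promoter sequence from RefSeq (build GRCm38.p6) was matched for 19 of the 35 genes, as 25 windows of 300 bases around annotated starts. The letters AGGAAG, which contain the core that ETS factors such as ERG and FLI1 bind, were found on either strand in 12 of the 25 windows (48%), belonging to 11 genes, and in 35.35% of all 32851 windows of that length. CCGGAA, another ETS core, was in 4% of the members' windows and 14.9% of all, and ACAAAG, a SOX core, in 24% and 18.71%. These words can overlap each other, and a match describes letters only. The 120 bases before the start are shown, 5′ to 3′ on the gene's strand, for 4 genes that rose by E15.5 and for Gja5, the most variable arterial gene, with AGGAAG or its reverse complement in capitals. They lie at chr3:137340958-137341077 (plus strand) for Emcn, chrX:48034854-48034973 (minus strand) for Apln, chr4:94739169-94739288 (plus strand) for Tek, chr16:18776727-18776846 (plus strand) for Cldn5 and chr3:97032282-97032401 (plus strand) for Gja5.
Emcn: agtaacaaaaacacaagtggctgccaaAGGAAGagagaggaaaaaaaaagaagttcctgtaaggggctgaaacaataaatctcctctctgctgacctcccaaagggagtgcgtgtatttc
Apln: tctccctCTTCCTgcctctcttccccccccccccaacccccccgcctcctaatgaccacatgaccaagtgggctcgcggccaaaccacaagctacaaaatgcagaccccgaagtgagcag
Tek: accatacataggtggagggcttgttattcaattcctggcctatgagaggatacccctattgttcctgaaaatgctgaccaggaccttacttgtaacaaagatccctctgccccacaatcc
Cldn5: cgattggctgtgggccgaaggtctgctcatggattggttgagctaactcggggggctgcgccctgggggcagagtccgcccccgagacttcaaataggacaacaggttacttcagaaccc
Gja5: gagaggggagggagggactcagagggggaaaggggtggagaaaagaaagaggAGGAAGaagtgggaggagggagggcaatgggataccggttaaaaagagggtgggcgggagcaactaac
The Emcn, Apln and Gja5 stretches each hold 1 such word, and those of Tek and Cldn5 hold none in these 120 bases.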

How the data were processed

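RNA of snap-frozen whole kidneys was sequenced from standard Illumina libraries, according to the labels' protocols. The deposited values are raw counts of reads for each gene symbol, made by the authors with STAR 2.4.0h1 and featureCounts 1.4.6 on build mm10, per the submitters' processing notes. Annotation, strandedness and treatment of multiply mapped reads are not given in the sources used here. Runs read as 1 specimen were summed, which left 24 specimens from 33 libraries. The labels do not say whether specimens are single animals or pools, and p-values cover only the variation among these specimens, which may be technical.

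Counts were tested with edgeR 4.0.16 (quasi-likelihood test) in R 4.3.3, with a minimum count of 10 and minimum total of 15, trimmed mean of M values scaling, and Benjamini-Hochberg adjustment at 0.05 over all genes tested. Terms for genotype, sex and batch entered the fit at E11.5; batch equals the replicate number of the titles and was the replicate block. Models at E15.5 and across stages held group and sex. Intervals are 95%, from the residual degrees of freedom. RPKM used the deposited gene lengths. DESeq2 1.42.0 was an alternative. The test was tried on simulated data first. Per-specimen values are given for members called between genotypes, the 5 with the largest called change between stages, the arterial, lymphatic and glomerular genes, and Cdh5, Pecam1 and Kdr. Other lists are named by at most 5 called genes. Icam2, Tal1, Fli1, Vegfa and Adm, and the promoters shown, were chosen after their values were seen. Members, lists, ribosomal genes and motifs were chosen with earlier results of these data known.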

Additional observations from a re-analysis of the deposited data

Results flagged for a closer look

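Each gene's values in each group were screened for 1 specimen standing apart from the rest, by the gap to its neighbour as a share of the group's range. Of 175 groups of values 10 were flagged, where chance flags about 5%. Wild-type replicate 6 stood below the other E11.5 wild-type embryos in Aplnr (51.1 CPM, next 88.2) and Flt4 (28.8 CPM, next 39.2). Heterozygous replicate 3 at E11.5 stood below the others in Gja4 (5.29 CPM, next 11.7), and heterozygous replicate 5 above them in Ehd3 (19.6 CPM, next 16.3). Among knockouts, replicate 2 was high in Angpt2 (27.6 CPM, next 20.4), replicate 4 was high in Cldn5 (53.1 CPM, next 41.2) and replicate 5 was low in Tek (40.6 CPM, next 55.6). At E15.5, wild-type replicate 4 was low in Apln (17.8 CPM, next 20.0), heterozygous replicate 3 was low in Fli1 (57.1 CPM, next 60.8) and heterozygous replicate 1 was high in Gja5 (37.4 CPM, next 33.7). No cause was tested.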

How the results depend on the processing

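The count of members called between knockout and wild-type embryos, 1, was 0 with no replicate block, with batch as a factor of 3 levels, in batch 1 alone, in batch 2 alone, without the libraries above 5% ribosomal counts and with the title prefix as a block. Leaving out 1 embryo gave 0 to 2, the 2 being Ramp2 and, without wild-type replicate 3, Prox1 (0.51, adjusted p = 0.0231). Fewer embryos entered the single-batch fits; the cause of the other losses was not tested. The other genotype comparisons and the difference between stages stayed at 0 in every fit. The replicate block added to the model across stages gave 24 calls between stages and 0 in the test of whether 1 lost copy acted differently by stage. That block rests on batch numbers that the labels do not tie together across stages, so it does not remove processing differences between them. Between stages the count ran from 20 to 24, with 20 to 23 when 1 specimen was left out, and Vwf, Prox1, Tal1 and Fli1 were lower in the fits that gave these counts. At E11.5 the spread of Gja5, Gja4, Vwf and Lyve1, and for Lyve1 counts as low as 1, limit what could be seen.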
